A study of Verbena bonariensis with 6 samples.

Results

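The pseudo-response regulators (APRR) are a small family of clock proteins, and 56 of the 9740 clusters in the deposited table of leaf regulators belonged to them. The authors' clusters are numbered transcript models, and each takes its gene name from its best match in another species. A cluster was taken as APRR where the table gave it the family Pseudo ARR-B, or where its best match in the NR or Swiss-Prot protein database was described as APRR or as a pseudo-response regulator. The family label picked 12 clusters and the text of the description added 44. The family was proposed with cold results of these data known, so the cold and control values of its clusters are given below as a description, with no test of their own.

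The libraries came from leaves of Verbena bonariensis cv. Finesse, an ornamental perennial, harvested from 3-month-old seedlings raised under a photoperiod of 16 h given in the labels as 25°C by day and 16°C by night, while the study's methods give warmer temperatures. Control plants (3 libraries) stayed in these conditions. Cold plants (3 libraries) went through 24 h of chilling at 4°C and 4 h of freezing at -4°C in 1 continuous treatment, so that chilling and freezing cannot be told apart. The labels call the libraries of each group biological replicates, and the hour of harvest is not given for either group in the sources used here. Cold and a different hour of harvest therefore cannot be told apart for these clock genes.

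In Arabidopsis, the pseudo-response regulators form a wave of expression through the day. PRR9 comes first after dawn, PRR7, PRR5 and PRR3 follow, and PRR1, also known as TOC1, peaks around dusk. Each protein carries a receiver domain that looks like that of a bacterial response regulator but lacks the aspartate that takes up a phosphate, and a CCT motif near its end through which it reaches DNA. PRR9, PRR7 and PRR5 repress the morning genes CCA1 and LHY, TOC1 represses them in the evening, and PRR3 protects TOC1 from breakdown. PRR9, PRR7 and PRR5 also hold down the cold-responsive CBF genes in that plant.

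The annotation of the clusters was checked first. A receiver domain was annotated in 36 of the 56 clusters, a CCT motif in 48, and both in 28. The 56 clusters had 12 different best matches, most of them proteins of Sesamum indicum (sesame). They were grouped by the number in the name as APRR9 with 23 clusters, APRR7 with 6, APRR5 with 7, APRR3 with 1 and APRR1 with 19. Names from both databases did not always match. All 23 APRR9 clusters and 4 of the 7 APRR5 clusters had PRR95, a rice name, as their Swiss-Prot match, and the single APRR3 cluster had APRR7. One cluster grouped under APRR1 by Swiss-Prot, Cluster-14918.206788, was called CONSTANS-LIKE 2 in NR, another family of CCT proteins, and it carried no receiver domain. Many clusters of one best match differed little in length, and how the counting divided reads among them is not given in the sources used here. A single cluster is therefore uncertain, and sums over clusters are given beside it.

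Levels are given as normalized CPM, the estimated counts of a cluster relative to the counts of its library on the clusters tested, after TMM scaling. The totals of whole libraries, worked out from counts, FPKM and lengths, were 16949159 to 20694139 reads for control and 13075442 to 14320392 for cold, of which the table held 5.85% to 5.86% and 5.52% to 5.53%, respectively. The regulators of chloroplasts and leaf shape in the table (GLK, sigma factors and YABBY, 75 clusters) were read in every case and summed to 252 to 263 FPKM in control and 417 to 435 in cold, while the only floral organ regulator found, DEFICIENS with 2 clusters, summed to at most 1.83 FPKM.

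The APRR clusters as a whole stood far higher in cold leaves. They summed to 1516, 1614 and 1638 normalized CPM in the control libraries and to 24353, 24593 and 24846 in the cold libraries, a mean of 1589 ± 64.6 (SD, n = 3) against 24597 ± 247, or 15.5-fold. Their share of all counts in the table went from 0.157% to 0.168% in control to 2.26% to 2.30% in cold. In length-scaled FPKM the sums were 78.9 ± 3.82 and 629 ± 12.1, or 7.97-fold. In whole leaves, a different number of cells of one type and a different amount of RNA per cell cannot be told apart. The difference was not shared evenly, since APRR9, APRR7, APRR5 and APRR3 sums were higher in every cold library than in any control library, whereas the APRR1 sum overlapped between the groups.

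**Figure D1:**
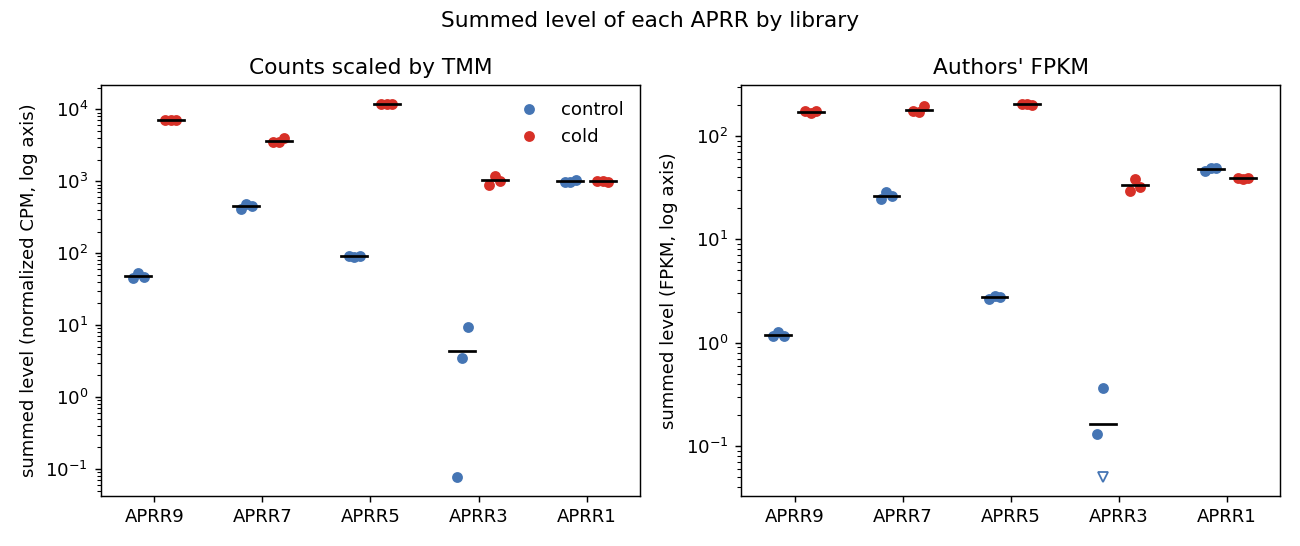
Summed level of the clusters of each APRR in each library, as normalized CPM (left) and as FPKM (right), both on log axes, with control in blue, cold in red and a bar at the group mean. The open triangle marks a library listed at 0 FPKM and is drawn at the foot of the axis. APRR9 and APRR5 sit at least 74.1-fold higher in cold on both scales, while the APRR1 points of the groups lie side by side in normalized CPM and slightly lower for cold in FPKM.

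The quasi-likelihood test of edgeR was run on 5004 clusters, with p-values adjusted over all of them. It covered 33 APRR clusters, and 24 of them were called higher in cold, 3 lower and 6 neither. Over all clusters tested 21.9% were called higher and 23.6% lower, and 45.5% were called in either direction. The cold libraries all lay above the control libraries for 26 of the 33 APRR clusters, beside 29.6% of all clusters tested, and all below them for 5, beside 34.3%. Nothing is read from these counts, because the family was chosen on the same contrast. The other 23 clusters did not pass the filter, which asks for enough counts in enough libraries. Cluster-14918.10290, for example, had 215 counts in cold replicate 3 but few in the other libraries. Together the 23 clusters held 1.98% of the APRR sum in control and 1.25% in cold. Of all 56, 17 clusters were read in cold libraries only, 3 in control libraries only, and Cluster-14918.210269 had no count in any library.

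**Figure D2:**
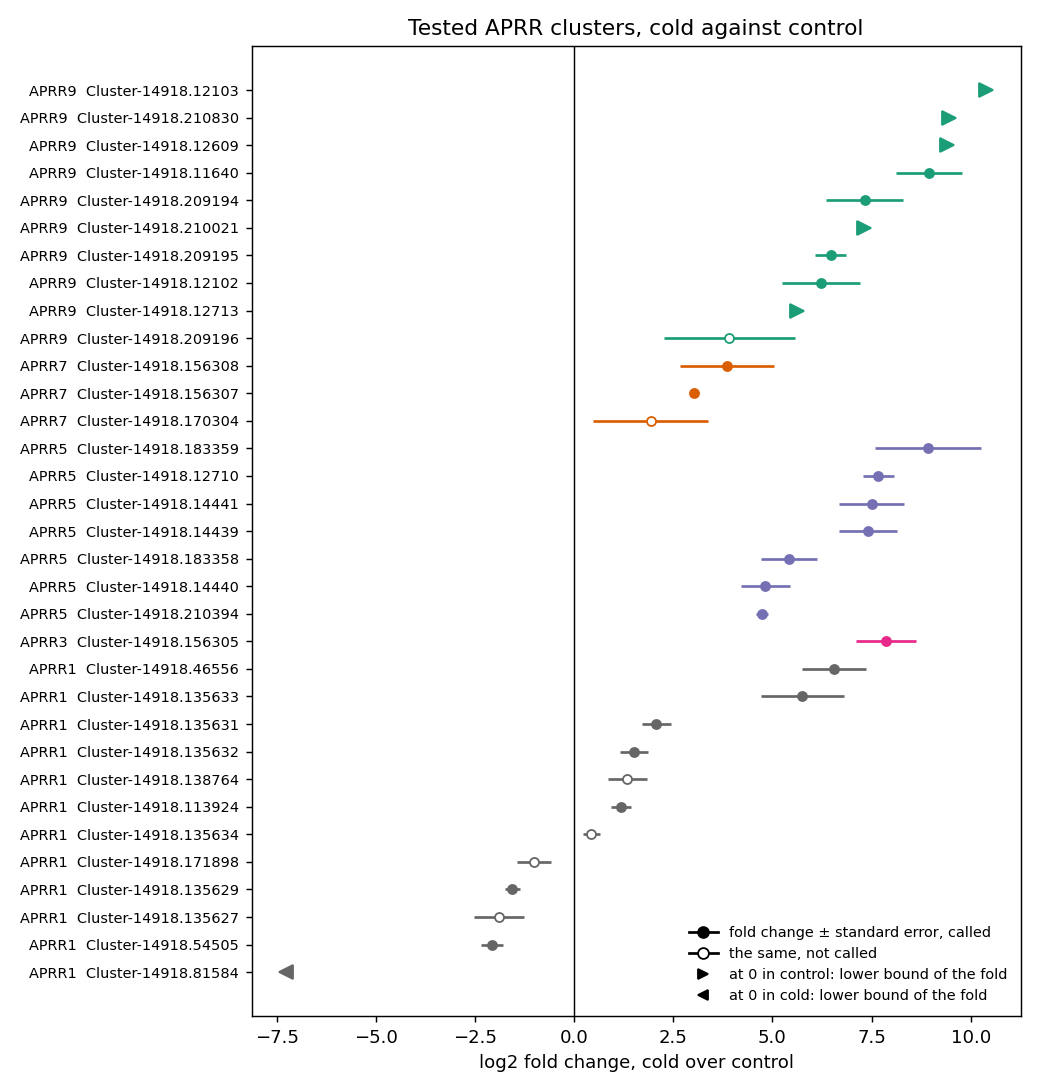
Fitted log2 fold change, cold over control, of the 33 tested APRR clusters by APRR number, with bars of 1 standard error. Filled circles were called by edgeR's test and open circles were not, and triangles are lower bounds for clusters at 0 in all libraries of one group. APRR9, APRR7, APRR5 and APRR3 clusters all lie to the right of 0, and APRR1 clusters lie on both sides.

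APRR9, the pseudo-response regulator of the early morning in Arabidopsis, was scarcely read in control leaves and abundant in cold leaves. Its 23 clusters, all matched to the same sesame protein, summed to 45.7, 52.4 and 46.5 normalized CPM in control and to 6991, 6996 and 7048 in cold. The means were 48.2 ± 3.67 and 7012 ± 31.7 (SD, n = 3), a 146-fold difference or 7.19 on the log2 scale. The cold libraries lay close together in this sum, with a coefficient of variation of 0.452%. The sum rested on 4698 to 5172 counts in each cold library, and 3 libraries give only a rough value of this spread. Per length, APRR9 went from 1.19 ± 0.0693 FPKM in control to 173 ± 3.35 in cold.

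Many APRR9 clusters had no count in control. This held for 17 of the 23, of which 1 had no count in cold either and 12 did not pass the filter. In cold these 17 summed to 2734 ± 173 normalized CPM, or 39.0% of the APRR9 sum. All APRR9 clusters together had only 47.0 to 65.0 counts in each control library, so a minor model could be missed there. The other 6 clusters were read in at least 1 control library and went from 48.2 ± 3.67 to 4278 ± 149, or 88.8-fold. The 4 clusters with a coding length of 2013 or 2016 bases held 95.6% of the APRR9 sum in control and 53.0% in cold, so the shorter models took a larger share in cold. All 14 APRR9 clusters with both domains summed to 6897 ± 21.4 in cold, against 115 ± 18.1 for the 9 clusters with the CCT motif alone, which were at 0 in control.

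Of the 10 APRR9 clusters tested, 9 were called higher in cold, beside 21.9% of all clusters tested. All 10 passed the filter through their cold libraries, which favours clusters higher in cold, so nothing is read from this count. The most abundant in both groups was Cluster-14918.209195, a model of 2729 bases, with 9.24, 26.1 and 11.6 normalized CPM in control and 1477, 1278 and 1511 in cold. The groups were far apart, and the fitted log2 fold change was 6.46 (SE 0.39). Cluster-14918.12103, of 1985 bases, had no count in any control library and 1248, 1288 and 923 normalized CPM in cold. A floor of 3 counts over the control group (0.869 normalized CPM) put it at least 1326-fold higher, or at least 822-fold with 1 control library fewer to set the floor. Cluster-14918.210830 was likewise at 0 in control and had 452, 321 and 1054 in cold, at least 701-fold higher and at least 445-fold without cold replicate 3. Cluster-14918.12609, also at 0 in control, had 798, 629 and 333, at least 675-fold higher, and at least 418-fold with 1 control library fewer. The tested cluster that was not called, Cluster-14918.209196, was uneven in both groups, with 13.5, 0 and 15.4 in control and 378, 22.0 and 38.5 in cold (log2 fold change 3.92, SE 1.65). Of the other called clusters, Cluster-14918.11640, Cluster-14918.209194 and Cluster-14918.12102 had log2 fold changes of 8.95, 7.33 and 6.22, while Cluster-14918.210021 and Cluster-14918.12713 were at 0 in control and at least 158-fold and 49.0-fold higher in cold, or at least 97.9-fold and 30.4-fold with 1 control library fewer. The 13 APRR9 clusters that did not pass the filter held 3.73% of the cold sum.

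Several APRR9 clusters were uneven between cold libraries, and some of their sums with a model of nearly equal length were less so. After the values had been seen, 14 APRR9 clusters were found to form 7 pairs with equal coding length and 14 bases of difference in total length. In the pair Cluster-14918.12103 and Cluster-14918.10290, the shorter model took 100%, 99.0% and 75.9% of the reads of the pair in cold replicates 1, 2 and 3. The sum of that pair was 1248, 1300 and 1216 normalized CPM, with a coefficient of variation of 3.40%, against 17.4% for the shorter model and 162% for the longer. In the pair Cluster-14918.210830 and Cluster-14918.12609, the shorter model took 36.2%, 33.8% and 76.0%, and the sum varied by 18.7%. The sum varied less between cold libraries than either of its clusters in 5 of the 7 pairs. The exceptions were the most abundant pairs. The sum of Cluster-14918.12102 and Cluster-14918.209194 varied by 20.2%, against 11.6% for the shorter model. That of Cluster-14918.209196 and Cluster-14918.209195 varied by 17.7%, against 8.84% for the longer model. Cold replicate 3 held nearly all reads of the longer model in 3 of the 7 pairs. Cluster-14918.10290, with 0.193, 12.6 and 293 normalized CPM, could therefore look like a cluster of 1 library.

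**Figure D3:**
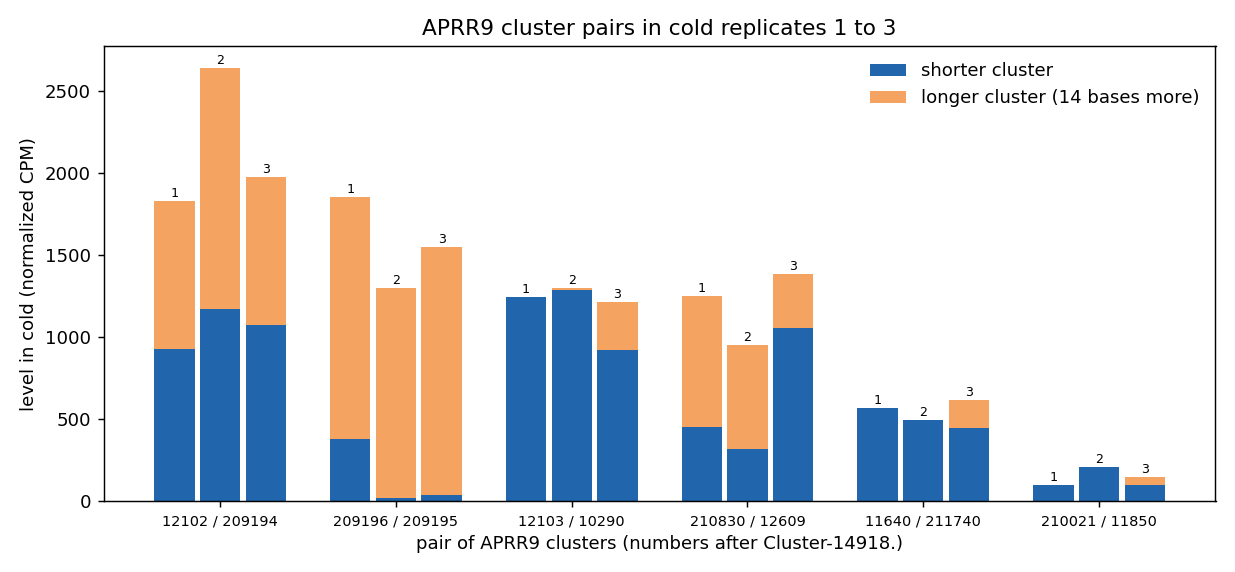
Level in normalized CPM of the 6 most abundant pairs of APRR9 clusters in cold replicates 1, 2 and 3 (numbers above the bars), stacked as the shorter cluster (blue) and the one with 14 bases more (orange). The split within a pair moves between replicates, for example from 36.2% and 33.8% to 76.0% in the fourth pair. The height of the third pair stays between 1216 and 1300, while that of the first runs from 1828 to 2643.

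APRR7, which overlaps in role with APRR9 in Arabidopsis, was the most abundant of the morning and midday members in control leaves, per length, and was higher in cold. Its 6 clusters were matched to 1 hypothetical protein of Erythranthe guttata (monkeyflower) and to APRR7 in Swiss-Prot. They summed to 408, 484 and 451 normalized CPM in control and to 3467, 3462 and 3936 in cold. The groups did not overlap, with means of 447 ± 38.1 and 3622 ± 272 (SD, n = 3), 8.10-fold or 3.02 on the log2 scale. In FPKM the means were 26.5 ± 2.04 and 180 ± 13.3, or 6.79-fold.

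Nearly the whole APRR7 sum came from Cluster-14918.156307, a model of 1265 bases that is coding from end to end and holds the CCT motif but no annotated receiver domain. It made up 94.6% to 98.7% of the sum in control and 96.3% to 98.8% in cold. Its levels were 394, 458 and 445 in control and 3425, 3336 and 3824 in cold, with a log2 fold change of 3.03 (SE 0.09). Of the other 2 tested clusters, Cluster-14918.156308 was called higher (log2 fold change 3.85, SE 1.19) and Cluster-14918.170304 was not called (1.93, SE 1.45). The 3 untested clusters held 0.248% of the cold sum. No APRR7 or APRR3 cluster had an annotated receiver domain, and all 7 had the CCT motif.

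APRR3 was present as a single model, Cluster-14918.156305, with 1809 bases and the CCT motif. It had 0.0777, 3.50 and 9.41 normalized CPM in the control libraries and 898, 1193 and 998 in the cold libraries. All cold values lay far above the highest control value, while the control values themselves differed widely. The means were 4.33 ± 4.72 and 1030 ± 150 (SD, n = 3), a ratio of 238, and the fitted log2 fold change was 7.86 (SE 0.76). The size of the ratio rests on control replicates 1 and 3, since the log2 ratio of the means, 7.89, became 7.26 without replicate 1 and 9.13 without replicate 3. In FPKM the cluster was listed at 0, 0.13 and 0.36 in control and at 29.4, 38.6 and 32.4 in cold.

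The name of this cluster is uncertain. Its NR match was APRR3 of sesame and its Swiss-Prot match APRR7, and its coding part, which runs on the reverse strand from base 694 to base 2, has the same coordinates as those of 2 APRR7 clusters, Cluster-14918.156306 and Cluster-14918.54510. Those had at most 7.66 and 6.41 normalized CPM in any library. Counted as 1 set of 7 clusters, APRR3 and APRR7 summed to 452 ± 40.4 in control and 4651 ± 284 in cold, or 10.3-fold.

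APRR5, which follows APRR7 in the Arabidopsis day and represses the morning genes in turn, had the highest level of the family in cold leaves, both in normalized CPM and per length. Its 7 clusters summed to 92.3, 89.4 and 90.7 normalized CPM in control and to 11983, 11924 and 11879 in cold. The means were 90.8 ± 1.41 and 11929 ± 52.1 (SD, n = 3), 131-fold or 7.04 on the log2 scale. The ratio depended on the scale, as the FPKM sums of 2.75 ± 0.0839 and 204 ± 3.36 were 74.1-fold apart. Clusters with a receiver domain and a CCT motif (4) differed 158-fold and those with a receiver domain alone (3) differed 43.6-fold in normalized CPM, and the latter are the shorter models, which weigh more in FPKM.

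All 7 APRR5 clusters were called higher in cold, beside 21.9% of all clusters tested. Only Cluster-14918.183358 and Cluster-14918.210394 had enough counts in control to pass the filter there. The others passed through their cold libraries, so nothing is read from this count. The largest in cold, Cluster-14918.183359 with 4237 bases, had 34.3, 0 and 0 normalized CPM in control and 3727, 5583 and 6281 in cold. Its fitted log2 fold change of 8.92 (SE 1.34) depended on control replicate 1, the only control library that read it. The ratio of its group means, over all control libraries, was 454. The largest in control was its close neighbour in length, Cluster-14918.183358 with 4224 bases, at 31.2, 40.6 and 38.1 in control and 3046, 1024 and 629 in cold (log2 fold change 5.42, SE 0.71). Without cold replicate 1, which held most of its cold reads, the log2 fold change of this cluster was 4.50.

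Both of these models have a coding length of 1731 bases, and in cold the library with the most reads of one had the fewest of the other. Their sum in cold was 6773, 6607 and 6910, a mean of 6763 ± 152, whereas the SDs of the single clusters were 1320 and 1297. In control the sum was 65.5, 40.6 and 38.1, so that the group means of the sum differed 141-fold. The remaining APRR5 clusters had log2 fold changes of 7.67 (Cluster-14918.12710), 7.50 (Cluster-14918.14441), 7.41 (Cluster-14918.14439), 4.82 (Cluster-14918.14440) and 4.73 (Cluster-14918.210394). The most even of them, Cluster-14918.210394, a receiver-domain fragment of 997 bases, had 15.5, 18.2 and 19.3 in control and 478, 496 and 459 in cold (SE 0.15).

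APRR1, the counterpart of TOC1 and the evening member of the family, differed from the others in that its sum was about the same in both groups. The 19 clusters summed to 970, 985 and 1040 normalized CPM in control and to 1013, 1017 and 985 in cold. The groups overlapped, and the means of 998 ± 37.1 and 1005 ± 17.6 (SD, n = 3) gave a log2 ratio of 0.01. This depended on the scale. The FPKM sum was lower in every cold library (48.3 ± 1.75 in control, 39.0 ± 0.677 in cold), and so was the sum in CPM of the whole library (60.2 ± 2.04 and 51.5 ± 0.873). Scaling to the whole library lowered the median log2 fold change of all tested clusters by 0.23, from -0.14 to -0.37, which is as large as the difference seen for APRR1.

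Within this sum, single clusters differed in both directions. Of the 12 APRR1 clusters tested, 5 were called higher in cold, 3 lower and 4 neither. Over all clusters tested, 21.9% were called higher and 23.6% lower. The 19 clusters had 8 best matches, and the 3 sesame APRR1 matches described next held most of the signal. A match to Populus trichocarpa, given further below, exceeded the second of them in control and the third in cold.

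The first, APRR1 isoform X1 of sesame with 8 clusters, was lower in cold. It summed to 588, 582 and 578 normalized CPM in control and to 456, 510 and 401 in cold, with means of 582 ± 4.84 and 456 ± 54.3, a log2 ratio of -0.35, and -0.86 in FPKM. The largest difference among its clusters was that of Cluster-14918.81584, a model of 1206 bases with a receiver domain and no annotated CCT motif. It had 229, 216 and 214 in control, 37.1% to 39.0% of the sum of its best match, and no count in any cold library. With the floor of 3 counts for the cold group, it was at least 152-fold lower in cold, and at least 98.3-fold lower with 1 cold library fewer. A second receiver-domain model of the same match, Cluster-14918.46556 with 1352 bases, went the other way, with 0, 1.74 and 1.86 in control and 76.8, 156 and 124 in cold. Its ratio of pooled counts was 94.3 (exact 95% interval for counting error 39.7 to 381).

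The second match, APRR1 isoform X2 of sesame with 2 clusters, was higher in cold. It summed to 32.2, 33.3 and 56.5 in control and to 255, 260 and 289 in cold, without overlap, and its means of 40.7 ± 13.7 and 268 ± 18.4 were 6.58-fold apart. Both clusters were called higher. Cluster-14918.135631 had 29.6, 33.3 and 54.3 in control and 211, 116 and 167 in cold (log2 fold change 2.07, SE 0.37). Cluster-14918.135633 had 2.59, 0 and 2.22 in control and 43.9, 144 and 122 in cold, a ratio of pooled counts of 67.7 (30.3 to 223). The isoforms X1 and X2 together summed to 623 ± 10.2 in control and 723 ± 41.4 in cold, higher by 0.22 on the log2 scale, but in FPKM the same sum was lower, at -0.42.

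The third match, another APRR1 of sesame with 3 clusters of 2271 to 2365 bases, all coding for 1536 bases with both domains, was lower in cold on each scale used. It summed to 215, 225 and 228 in control and to 69.9, 62.4 and 77.7 in cold. Its means of 223 ± 6.79 and 70.0 ± 7.64 gave a ratio of 0.315 or -1.67 on the log2 scale, and its FPKM went from 6.56 ± 0.161 to 1.72 ± 0.200. Cluster-14918.54505 carried most of it, with 163, 159 and 189 in control and 40.9, 29.3 and 52.3 in cold (log2 fold change -2.07, SE 0.28, called lower). Cluster-14918.171898 had 45.8, 51.1 and 33.5 in control and 29.0, 20.0 and 15.5 in cold, and was not called (-1.02, SE 0.43).

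Models of isoform X1 that differed in length also differed in direction. Among its 8 clusters, 2 pairs had lengths of 2246 and 2472 bases and of 2306 and 2532 bases, each 226 bases apart, a grouping made after the values had been seen. The shorter models, Cluster-14918.135627 and Cluster-14918.135629, have a coding part of 564 bases placed by a protein match. They summed to 257 ± 12.6 normalized CPM in control and 83.8 ± 6.17 in cold. The longer models, Cluster-14918.135632 and Cluster-14918.113924, have coding parts of 1319 and 1379 bases predicted by ESTScan. These coding lengths are therefore not comparable with those of the shorter models, and all 4 models have both domains annotated. The longer models summed to 95.4 ± 8.72 in control and 236 ± 44.2 in cold. All 4 together had 353 ± 6.79 and 319 ± 41.7, which overlapped.

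Of these 4 models, Cluster-14918.135629 was called lower, with 212, 210 and 203 in control and 61.7, 67.7 and 82.5 in cold (log2 fold change -1.55, SE 0.19). Cluster-14918.135627 had 31.2, 50.9 and 64.8 in control and 23.4, 9.30 and 6.69 in cold and was not called (-1.89, SE 0.64), but was called lower without cold replicate 1 (-2.61), by DESeq2, when scaled to the whole library, with the stricter filter and by limma on both FPKM scales. Cluster-14918.135632 was called higher, from 30.8 ± 9.82 to 87.9 ± 15.1. Cluster-14918.113924 had 65.1, 67.8 and 60.8 in control and 189, 139 and 115 in cold (log2 fold change 1.19, SE 0.26). Its call as higher was lost without control replicate 3, where the log2 fold change was 1.10, and with the replicate number as a block (1.16).

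**Figure D4:**
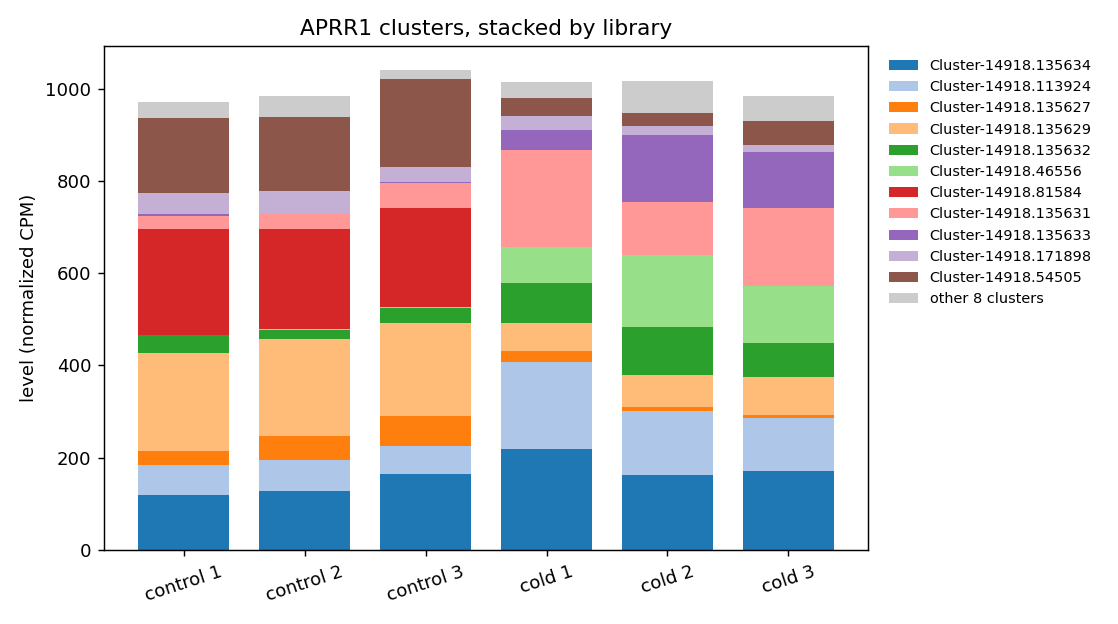
Level in normalized CPM of the APRR1 clusters, stacked in each of the 6 libraries, with the 11 clusters that reach a mean of 25 in a group drawn in their own colour and the other 8 in grey. The bars end between 970 and 1040 in all libraries, but Cluster-14918.81584 (red) is seen in control only, and Cluster-14918.46556 (light green) and Cluster-14918.135633 (purple) almost only in cold.

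Short models matched to poplar made up most of the rest of APRR1. Cluster-14918.135634, of 992 bases with a CCT motif and matched to Populus trichocarpa, had 118, 128 and 164 normalized CPM in control and 218, 163 and 172 in cold. The groups overlapped (log2 fold change 0.44, SE 0.21), and it was not called, except by DESeq2 (0.50). The sum for its best match, 141 ± 23.3 and 184 ± 30.0 in normalized CPM, was reversed in FPKM at 13.2 ± 1.71 and 12.5 ± 2.15. Cluster-14918.138764, a fragment of 380 bases matched to Populus euphratica, had 5.27, 7.96 and 6.26 in control and 12.9, 13.1 and 21.4 in cold (1.35, SE 0.50). It was not called, but was called higher by DESeq2 and by limma on both FPKM scales. The 7 APRR1 clusters that could not be tested held 2.72% of the APRR1 sum in control and 3.65% in cold. One of them, Cluster-14918.46558, matched to an APRR1 isoform of monkeyflower, was read in cold replicate 3 only (22.7), and Cluster-14918.54506 and Cluster-14918.135630 were read in control only, with at most 12.2 and 7.12.

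Per length, the order of the family differed between the groups. In control leaves the FPKM sums ran from APRR1 (46.3 to 49.6) through APRR7 (24.4 to 28.5), APRR5 (2.65 to 2.80) and APRR9 (1.15 to 1.27) to APRR3 (0 to 0.36), and no neighbours overlapped. In cold leaves APRR5 came first (200.1 to 206.7), followed by APRR7 (171 to 195) and APRR9 (169 to 175), which overlapped, and then by APRR1 (38.2 to 39.5) and APRR3 (29.4 to 38.6), which also overlapped. The evening member stood highest in control, and in cold its range met that of the lowest. With the hour of harvest unknown, this order cannot be assigned to cold alone.

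A list of 213 other clusters with names linked to the clock was set beside the family. It held morning MYB factors, the evening complex, light-input partners, output factors and the true response regulators (ARR) that share the receiver domain. Of the 127 clusters tested, 38 were called higher and 38 lower, beside 21.9% and 23.6% of all tested clusters. The median log2 fold change was -0.72 against -0.14 over all. By part, this median was -2.14 for the ARR clusters (44 tested) and -0.20 for the evening complex. It was 0.42 for the morning MYB factors and 0.39 for the output factors. The split of calls depended on the scale, with 30 called higher and 44 lower when scaled to the whole library. It was 34 and 56 by limma on log2(FPKM + 1), and 33 and 53 by limma on log2(FPKM + 0.1).

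The APRR proteins repress the morning MYB factors in Arabidopsis. Beside 21.9% and 23.6% of all tested clusters, 12 of 35 tested clusters of these factors were called higher and 7 lower. LHY, a morning repressor of evening genes, was among the lower ones. The 4 clusters matched to LHY of Nicotiana attenuata summed to 3459, 3377 and 3376 normalized CPM in control and to 1300, 1358 and 1270 in cold, a ratio of 0.385, and 3 of them were called lower. REVEILLE 6, a relative of LHY that activates evening genes in Arabidopsis, was higher. The 7 clusters matched to its isoform X2 summed to 549 ± 46.0 in control and 2150 ± 28.3 in cold, or 3.92-fold, and 4 were called higher.

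The evening complex represses PRR9 at night in Arabidopsis, and its DNA-binding subunit is LUX, also named PCL1. Of the clusters called LUX or PCL1 in NR or Swiss-Prot, 18 were tested. Of these, 7 were called higher and 2 lower, beside 21.9% and 23.6% of all tested clusters. The clusters called LUX or PCL1 include 7 that are PCL1 in Swiss-Prot but GLK2, a regulator of chloroplasts, in NR. These 7 are also among the leaf regulators given above. Without them, a choice made after the values had been seen, 6 of 15 were called higher and 2 lower. Matches to PCL1 were found on both sides. A sesame protein without a name in NR and called PCL1 in Swiss-Prot summed to 628 ± 49.5 in control and 1092 ± 25.6 in cold, and 3 of its 4 clusters were called higher. The 9 clusters matched to a PCL1-like protein summed to 841 ± 34.4 and 383 ± 28.6, and 1 of them was called lower. The light-input partners were represented by 1 cluster alone, matched to adagio protein 3, which had 13.1 ± 16.7 and 15.1 ± 26.1 and was not tested.

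The output factors include the cyclic Dof repressors of flowering and the CBF factors. Of their 30 tested clusters, 16 were called higher and 9 lower, beside 21.9% and 23.6% of all tested clusters. Cyclic Dof factor 1 summed to 2276 ± 76.1 in control and 3140 ± 86.2 in cold. Cyclic Dof factor 2-like summed to 3268 ± 36.8 and 2414 ± 173, but 2 of its 4 clusters were called higher and 1 lower. The CBF matches, looked at after the values had been seen, went both ways. Cluster-14918.12680, named dehydration-responsive element-binding protein 1B-like, went from 40.2 ± 9.71 in control to 4249 ± 107 in cold. Cluster-14918.100109, named 1D-like, went from 533 ± 50.2 to 29.3 ± 23.1. The ARR response regulators, which act in cytokinin signalling, had 3 of 44 tested clusters called higher and 20 lower, with a median log2 fold change of -2.14. ARR8, a negative regulator of that pathway, went from 1306 ± 57.2 to 84.4 ± 13.4 normalized CPM over its 7 clusters, 4 of which were called lower. ARR2-like isoform X3 went from 1223 ± 38.1 to 151 ± 21.6, and 1 of its 3 clusters was called lower. Among these relatives more clusters were called lower than higher, beside 23.6% and 21.9% of all tested clusters.

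**Figure D5:**
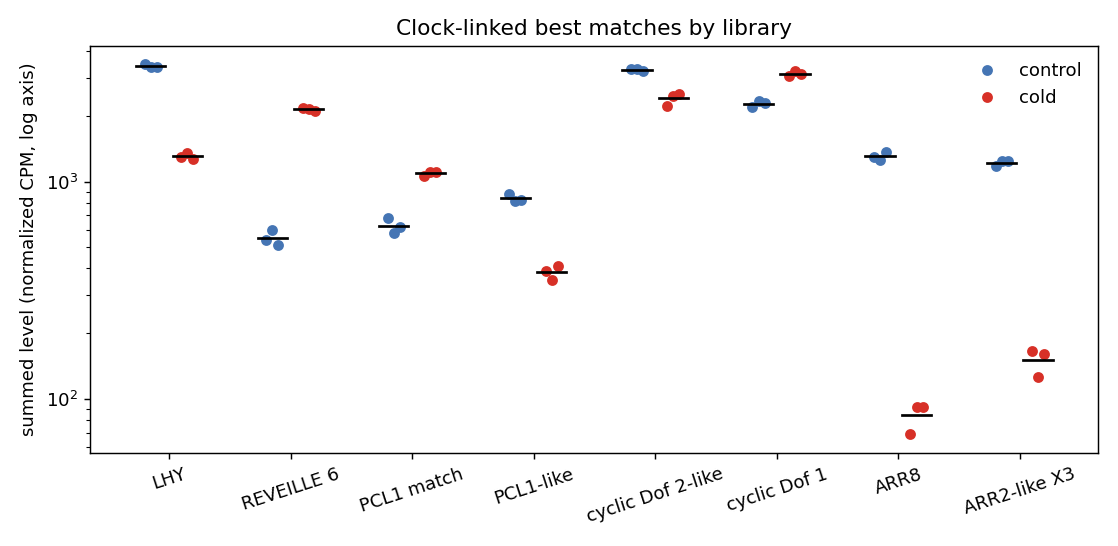
Summed level in normalized CPM (log axis) of the clock-linked best matches with the highest sums in each control (blue) and cold (red) library, with a bar at the group mean. The adagio match and the single CBF clusters are not drawn. LHY, the PCL1-like match, cyclic Dof factor 2-like, ARR8 and ARR2-like lie lower in cold, and REVEILLE 6, the PCL1 match and cyclic Dof factor 1 lie higher, with no overlap between the groups.

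The patterns nearest to the extremes of the family were also looked for. Likeness was measured over the 6 libraries as the root mean square difference of log2(sum + 1), centred on each mean, among 2174 other best matches. The nearest to APRR3, the match with the largest ratio, was an AP2 domain CBF protein of Solanum tuberosum (difference 0.971), at 1.99 ± 1.25 normalized CPM in control and 291 ± 29.2 in cold. It was followed by an unnamed protein of Coffea canephora (0.993) and a match to a diatom protease (1.06). The nearest to the second sesame APRR1, the match with the smallest ratio, were an ALFIN-LIKE 4-like PHD finger protein (0.0642), a Sin3-like 2 protein (0.0668) and a zinc finger CCCH protein 14-like (0.0761). ALFIN-LIKE 4-like went from 283 ± 2.04 to 87.9 ± 3.71. All of these follow mainly the difference between the groups, since there are only 2 conditions.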

How the data were processed

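Leaf RNA was sequenced in 3 control and 3 cold libraries, which were assigned by their labels. The submitters' processing notes name TopHat2 2.0.12 and Bowtie2 2.0.6. The program that assembled and counted the clusters is not given in the sources used here. A table of regulators was deposited (10251 lines, 9740 clusters, of which 492 stand on several lines and were used once). The authors left its estimated counts without normalization, and they were rounded to whole numbers for the tests. The FPKM values deposited by the authors are scaled to cluster length and to all reads of the library. Library totals were fitted from counts, FPKM and the deposited cluster lengths, and the deposited match scores entered no result. The authors' own log2 ratio, q value and mark of change, cold against control, were not used.

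Counts were tested with edgeR 4.0.16 in R 4.3.3 (quasi-likelihood, TMM, a model with condition alone, filterByExpr at its minimum count of 10). The adjustment (Benjamini-Hochberg) ran over the 5004 clusters tested, and clusters with an adjusted p under 0.05 were called. The spread between replicates, as a common biological coefficient of variation, came to 0.639. The SE of a log2 fold change is its size divided by the root of its F value. A floor of 3 counts over a group was 0.869 normalized CPM in control and 1.44 in cold, and floors and intervals cover counting error only. Alternatives used DESeq2 1.42.0, limma 3.58.1 on log2(FPKM + 1) and log2(FPKM + 0.1), RLE factors, whole-library totals, other filters, the replicate number as a block, and each library left out. All tests were tried on simulated data. Tables were summarised in Python 3.11.15 (pandas 2.3.3, numpy 2.4.6, scipy 1.17.1) and drawn with matplotlib 3.10.9.

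Members, lists and tests were chosen with earlier results of these data known. Named clusters are, for each best match, the highest in control and in cold with a mean of at least 10 normalized CPM, and the 3 with the largest and the 3 with the smallest log2 fold change among tested clusters without overlap. Other clusters are named to account for all members, and were chosen after their values were seen. For each part of the clock-linked list the 2 best matches with the highest sums are named, and single CBF clusters were added after their values were seen.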

Additional observations from a re-analysis of the deposited data

How the results depend on the processing

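The count of APRR clusters called higher in cold, 24, was 7 where only the family label chose the members, which leaves fewer clusters, and 23 to 26 with 1 library left out. The count called lower, 3, was 5 by DESeq2, by limma on log2(FPKM + 1) and by limma on log2(FPKM + 0.1), 1 by the family label alone, and 3 to 4 with 1 library left out.

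For the summed levels, the log2 ratio in FPKM was -0.080 for the Populus trichocarpa match against 0.39, -0.86 for APRR1 isoform X1 against -0.35, -1.93 for the second sesame APRR1 against -1.67, 2.76 for APRR7 against 3.02 and 6.21 for APRR5 against 7.04. In CPM of the whole library the ratios were -0.59, -1.90, 2.78 and 6.80 for the last 4 and 6.95 for APRR9 against 7.19. Summed over all APRR1 clusters, the ratio was 0.0096, which reverses that of isoform X1 and of the second sesame APRR1 and is far below those of isoform X2 (2.72) and of both poplar matches (0.39 and 1.28). Fitting summed counts in edgeR gave 3.20 for APRR7, -0.17 for isoform X1, 7.36 for APRR9, 7.22 for APRR5 and -1.48 for the second sesame APRR1. With RLE factors APRR5 had 7.11, and with 1 library left out 6.98 to 7.04. Apart from the construction of each sum, the cause of these shifts was not tested. Among the values of summed levels under the alternatives, 88 moved by less than the spread between replicates, 26 by more, and 3 reversed.

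Over all tested clusters, same-numbered libraries did not deviate together (correlations of -0.030, -0.014 and -0.0053). Whether they shared a harvest or a batch was not tested. With the replicate number as a block, 19 APRR clusters were called higher and 3 lower, clock-linked clusters called lower were 24 instead of 38, and those called higher 26 instead of 38. The block on summed counts gave 3.20, -0.17, 7.36, 7.22 and -1.48 for the same sums as above. A cluster at 0 in a group may still lie below 0.869 normalized CPM in control or 1.44 in cold.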
